A study of Mus musculus with 8 samples.

Results

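Interferon response genes were followed in the hearts of 8 mice heterozygous for Pcyt2, which encodes the rate-limiting enzyme in making the membrane lipid phosphatidylethanolamine out of ethanolamine. The list of 54 genes covers sensors of foreign nucleic acid, interferon-induced effectors, interferon transcription factors, guanylate-binding and immunity-related GTPases, and antigen processing. A gene was taken from the array where a probe set carried its symbol and no other, and several such probe sets were averaged. In this way 48 of the 54 genes were measured among 22180 genes in all. No filter on low values was applied. Of the other 6, Ifi44 was unnamed on the array here, and Oas1a, Dtx3l, Irf5, Gbp2 and Ifi47 shared a probe set with another gene.

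The 2 groups were 4 males and 4 females, all Pcyt2+/- and all 8 months old, and the labels call the tissue myocardium. The heterozygous state was common to both groups, and no wild-type heart was analysed here. The comparison was therefore between the sexes within 1 genotype. The labels name neither the strain nor the litter. The hearts were snap frozen, having been dissected 3 to 4 hours into the light phase, and 100 ng of total RNA per heart went into the labelling reaction.

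The deposited values are on a log2 scale and centred on the median of the 8 arrays for every probe set, so they show how hearts differ and hold no level of a gene. For the same reason a low or absent transcript could not be recognised, and the tissue label could not be checked against the level of cardiac markers. A positive difference means a higher mean in females, and all tests were made with limma over the 22180 genes. Xist lay higher in every female and 3 Y-linked genes higher in every male, so the sex labels fit the data. Of the 22180 genes, 7 differed at an adjusted p under 0.05, a share of 0.0316%, and 0 of the 48 interferon response genes were among them.

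Interferons are secreted proteins that bind receptors on neighbouring cells and activate transcription factors, which switch on a common set of antiviral genes. Type I interferons act mainly on a promoter element called the interferon-stimulated response element, where STAT2 and IRF9 take part. Interferon gamma acts on the gamma-activated sequence and is the stronger inducer of the GTPases and of antigen processing. Heart tissue keeps a low tonic expression of many of these genes, and both cardiomyocytes and the resident immune and stromal cells carry them.

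The interferon response genes had higher means in females than in males in 40 of the 48 measured genes, against 49.6% of all genes. An unadjusted p under 0.05 with a higher mean in females was found for 16 of 48, or 33.3%, against a background of 3.63% over all genes. In the direction of males the count was 0 of 48, against 3.32%. In 8 genes all 4 female values lay above all 4 male values, or 16.7% against a background of 1.89%, and in 0 genes did the males lie fully above, against 1.85%. The differences were small. Their median was 0.09 on the log2 scale, in a range from -0.11 to 0.36, where the median over all genes was -0.00058. No gene of the list passed the adjustment over all genes, so none can be called different by itself. The list was assembled with an earlier result of these data in view, in which a shorter interferon list was higher in females, and its counts are therefore a description and no independent support.

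**Figure D1:**
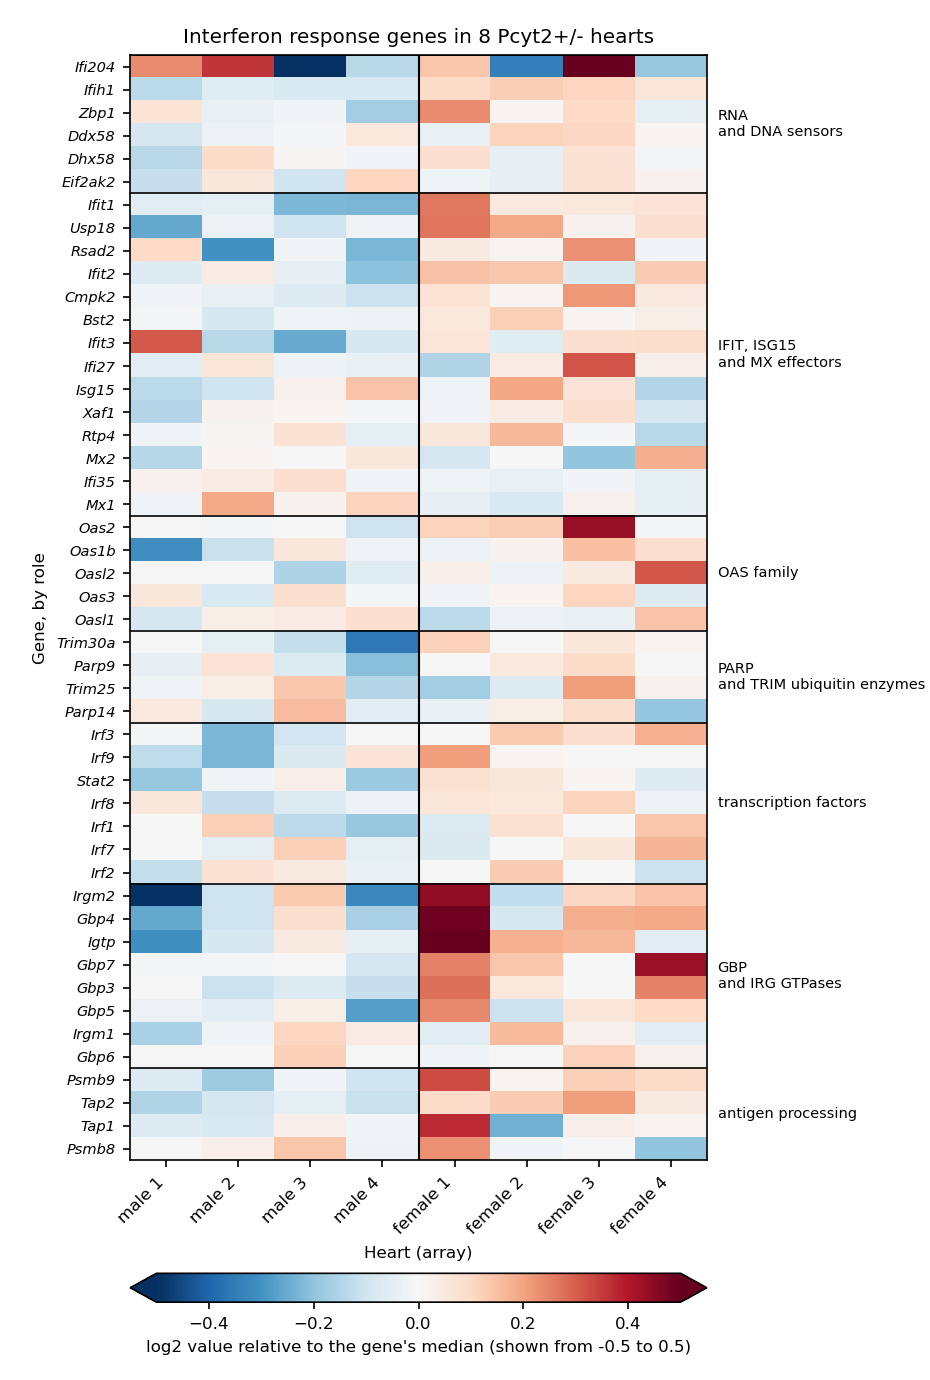
Heat map of the 48 measured interferon response genes (rows, grouped by role and ordered by sex difference) in the 4 male and 4 female hearts (columns), as log2 values relative to each gene's median, with the colour scale ending at -0.5 and 0.5. Red prevails on the female side, most deeply in female 1 among the GTPases, and Ifi204 runs past the scale in both sexes.

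Single hearts did not contribute evenly. The mean over the 48 genes was -0.06 in male 1, -0.03 in male 2, -0.02 in male 3 and -0.07 in male 4. In females it was 0.09 in female 1, 0.03 in female 2, 0.10 in female 3 and 0.03 in female 4. Each female heart thus lay above each male heart, with male 3 the nearest male and female 2 the nearest female. Female 1 held the highest of the 8 values in 15 of the 48 genes and female 3 in 12, while single males held it in 1 to 3 genes. Without female 1 the count of 16 became 9 of 48, all 9 among the 16, and the background was 3.70%.

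**Figure D2:**
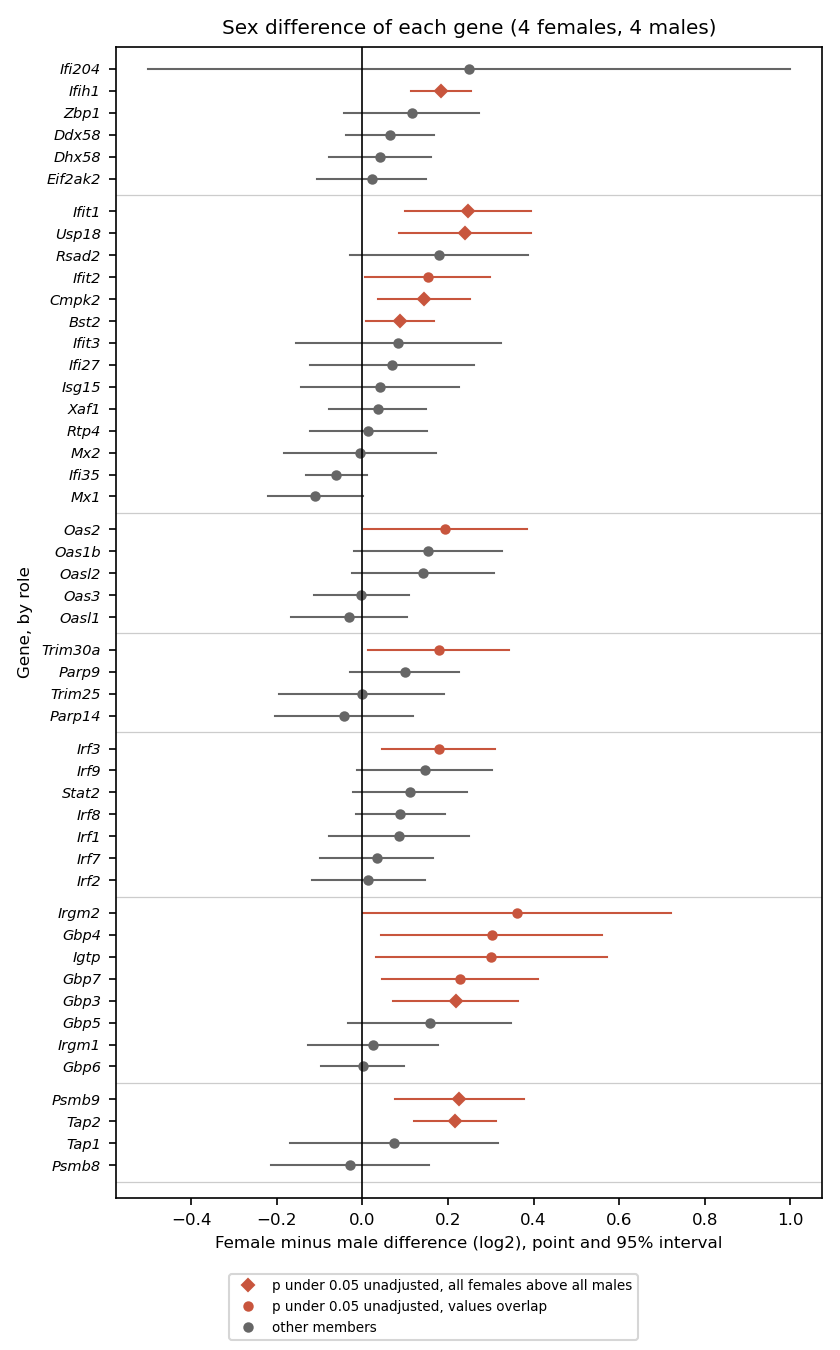
Female minus male difference on the log2 scale (x axis, point and 95% interval) of the 48 measured genes (y axis, by role). Red marks the 16 genes with an unadjusted p under 0.05, diamonds the 8 of them in which all females lay above all males, and grey the other members, with 8 points left of 0.

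Before the role groups, the promoters give the sequence context. RefSeq windows of the assembly GRCm38.p6, reaching from 250 bases before to 50 bases after the annotated start, were at hand for 39 of the 54 genes. The core of the interferon-stimulated response element was searched as GAAANNGAA followed by a further A, on both strands, and occurred in the windows of 20 of the 39 genes (51.3%), against 3.99% of 27025 genes with a window. The core of the gamma-activated sequence, TTCNNNGAA on both strands, occurred in 13 of the 39 (33.3%), against 9.55%. Matches of the response element may overlap one another where the repeat runs on. Of the 16 genes with an unadjusted p under 0.05, 12 had a window and 8 of these held the response element core, while 10 of the 21 other measured genes with a window held it. A match describes letters and shows no binding.

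The sensors of foreign nucleic acid had higher means in females in 6 of 6 genes, against 49.6% of all genes. An unadjusted p under 0.05 in that direction was found in 1 of the 6, against 3.63% of all genes. The role groups hold 4 to 14 measured genes, so 1 such gene says little about a group. Ifih1 encodes MDA5, the cytoplasmic sensor of long double-stranded RNA. In males its values were -0.13, -0.06, -0.08 and -0.08, and in females 0.10, 0.12, 0.11 and 0.06. The sexes did not overlap, and the spread within each sex was small beside the gap between them. The difference was 0.18 ± 0.03 (SE), or 1.14-fold (95% interval 0.11 to 0.25, limma adjusted p = 0.252), which placed Ifih1 18th by p among the 22180 genes. Over 22 alternatives it stayed between 0.17 and 0.20, with an adjusted p from 0.155 to 0.581.

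The other sensors did not share this pattern. Ddx58, which encodes RIG-I, a sensor of short RNA with an uncapped end, had a difference of 0.06 (interval -0.04 to 0.17). Dhx58, the gene of LGP2, which assists MDA5, had 0.04 (-0.08 to 0.16), and Eif2ak2, the gene of the RNA-activated kinase PKR, had 0.02 (-0.11 to 0.15). Their intervals still allow a modest difference. Zbp1, a sensor of Z-form nucleic acid, had a difference of 0.12 (-0.04 to 0.27). Whether Ifih1 differed more than these was not tested.

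Ifi204, a gene of the IFI16-like family of DNA sensors, had the widest range of all 48. Its male values were 0.24, 0.36, -0.76 and -0.14, and its female values 0.14, -0.34, 1.08 and -0.19. High and low hearts occurred in both sexes, and female 3 alone stood far above the rest. The difference of 0.25 had an interval from -0.50 to 0.999. It turned to -0.05 without female 3 and was 0.95 with the mean of T and NK lymphocyte markers as a covariate. Relatives of Ifi204 lie beside it in the genome and are alike in sequence, so signal of one on the probe set of another cannot be told apart here.

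The effector genes of the IFIT, ISG15 and MX type had higher means in females in 11 of 14, against 49.6% of all genes. In that direction 5 of 14 had an unadjusted p under 0.05, against 3.63%. The mean of the 14 per heart lay between -0.05 and -0.03 in males and between 0.01 and 0.06 in females. Ifit1 encodes a protein that binds foreign RNA ends, and Isg15 a ubiquitin-like modifier. Their promoter stretches of 160 bases before the start are shown because both hold the response element core, in capitals, while their values differed in pattern. They lie at chr19:34640729-34640888 on the plus strand and at chr4:156200819-156200978 on the minus strand (RefSeq, GRCm38.p6).

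Ifit1: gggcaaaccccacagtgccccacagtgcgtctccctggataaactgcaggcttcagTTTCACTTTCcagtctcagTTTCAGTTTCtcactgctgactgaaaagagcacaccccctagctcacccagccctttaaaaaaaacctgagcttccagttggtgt

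Isg15: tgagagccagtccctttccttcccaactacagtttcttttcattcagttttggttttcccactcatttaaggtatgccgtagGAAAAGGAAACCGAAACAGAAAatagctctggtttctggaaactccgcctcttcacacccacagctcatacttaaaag

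Ifit1 has 2 matches on the minus strand, starting 104 and 85 bases before the start, and Isg15 has 3 that overlap, starting 78, 72 and 66 bases before it. Ifit1 values were -0.05, -0.05, -0.23 and -0.23 in males and 0.26, 0.05, 0.05 and 0.06 in females. All females lay above all males, with female 1 well above the other 3. The difference was 0.25 ± 0.06 (SE), or 1.19-fold (interval 0.10 to 0.39, limma adjusted p = 0.485). Isg15 values were -0.13, -0.10, 0.02 and 0.14 in males and -0.02, 0.19, 0.07 and -0.15 in females, so the sexes overlapped throughout. Its difference was 0.04 (interval -0.14 to 0.23).

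Usp18, whose enzyme removes ISG15 from proteins and restrains the type I receptor, also separated the sexes, with its males in another order than in Ifit1. Its values were -0.26, -0.03, -0.10 and -0.02 in males and 0.27, 0.19, 0.02 and 0.08 in females. Male 1 was the lowest heart and female 1 the highest, and the sexes met closely at female 3 and male 4 without overlapping. The difference was 0.24 ± 0.07 (SE), or 1.18-fold (limma adjusted p = 0.542). Ifih1, Tap2, Ifit1 and Usp18 kept an unadjusted p under 0.05 in all 21 alternatives fitted by gene.

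Cmpk2, a mitochondrial nucleotide kinase gene that neighbours Rsad2, had male values of -0.02, -0.04, -0.07 and -0.11 and female values of 0.07, 0.02, 0.22 and 0.05. All females lay above all males, female 3 highest. The difference was 0.14 ± 0.05 (SE), or 1.10-fold (limma adjusted p = 0.605). Rsad2, which encodes the antiviral enzyme viperin, had a difference of 0.18 with an interval from -0.03 to 0.39, and its males ran from -0.30 to 0.10. Bst2, the gene of the virus tether tetherin, was fully separated by a small margin. Its difference was 0.09 ± 0.04 (SE, limma adjusted p = 0.671).

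**Figure D3:**
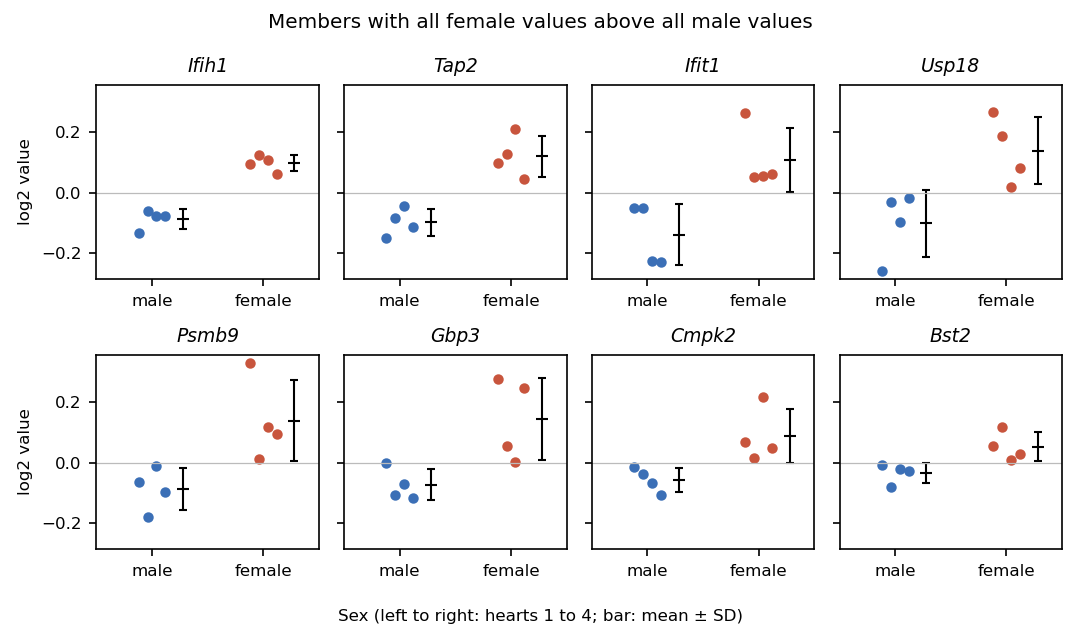
Log2 values (y axis) of the 8 genes in which all 4 females lay above all 4 males, with a point for each heart (hearts 1 to 4 from left to right) and a bar for the mean ± SD. The gap between the sexes was wide in Ifih1, Ifit1 and Tap2 and almost closed in Gbp3 and Bst2.

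The neighbouring genes Ifit2 and Ifit3 were less clear. Ifit2 had a difference of 0.15 (interval 0.01 to 0.30), with female 3 at -0.07 among the males. Ifit3 had 0.08 (-0.16 to 0.32), with male 1 at 0.31 as the highest heart. Differences of the interferon-induced genes Ifi27, Xaf1 and Rtp4 ran from 0.01 to 0.07.

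A few effectors had higher means in males. Mx1, a dynamin-like antiviral GTPase gene that is broken in many laboratory strains, had the largest difference in that direction. Its values were -0.02, 0.19, 0.02 and 0.11 in males and -0.04, -0.07, 0.02 and -0.05 in females. Male 2 and male 4 stood high, and the other males lay near the females. The difference was -0.11 ± 0.05 (SE, limma adjusted p = 0.718). Ifi35 values were 0.02, 0.04, 0.08 and -0.01 in males and -0.02, -0.04, -0.01 and -0.04 in females, a difference of -0.06 ± 0.03 (SE, limma adjusted p = 0.744). Male 4 at -0.0147 lay just below female 3 at -0.0129, so the groups overlapped slightly. Mx2 had a difference of -0.0048 (interval -0.18 to 0.17). RefSeq lists Mx1, Mx2 and Oas1b as transcribed pseudogenes in its C57BL/6J assembly.

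The OAS genes encode synthetases of short oligoadenylates, which activate the RNA-degrading enzyme RNase L, and relatives of these. Higher means in females were found in 3 of 5, against 49.6% of all genes. In that direction 1 of 5 had an unadjusted p under 0.05, against 3.63%. Oas2 values were 0.0020, -0.0092, -0.0020 and -0.10 in males and 0.11, 0.12, 0.44 and -0.0073 in females. Female 3 stood apart as the highest heart, and female 4 lay within the males. The difference was 0.19 ± 0.08 (SE), or 1.14-fold (limma adjusted p = 0.706). It was 0.10 without female 3. Oas1b, whose protein controls flavivirus resistance in mice, had 0.15 (interval -0.02 to 0.33), and Oasl2 had 0.14 (-0.02 to 0.31), led by female 4 at 0.31. Oas3 and Oasl1 had differences of -0.0024 and -0.03.

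The ADP-ribosyltransferase and TRIM genes split evenly in direction, with higher means in females in 2 of 4, against 49.6% of all genes. Towards females 1 of 4 had an unadjusted p under 0.05, against 3.63%. Trim30a, a TRIM gene that dampens inflammatory signalling, had male values of 0.00014, -0.05, -0.12 and -0.36 and female values of 0.11, -0.00014, 0.06 and 0.01. Its difference of 0.18 ± 0.07 (SE, limma adjusted p = 0.682) leaned on male 4, the lowest heart. Parp9 had a difference of 0.10 (interval -0.03 to 0.23) and Parp14 one of -0.04 (-0.20 to 0.12). Trim25, a ubiquitin ligase gene of the RIG-I route, had -0.0016 (-0.19 to 0.19).

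The transcription factor genes had higher means in females in 7 of 7, against 49.6% of all genes, but by small amounts. In that direction 1 of 7 had an unadjusted p under 0.05, against 3.63%. The group's mean per heart was -0.05, -0.06, -0.03 and -0.06 in males and 0.03, 0.07, 0.04 and 0.04 in females, without overlap. Irf3, the factor that sensors activate to start interferon transcription, had male values of -0.0076, -0.22, -0.10 and 0.0017. Its female values were -0.0017, 0.13, 0.08 and 0.18. Male 4 and female 1 met near 0, and the other hearts kept to their sex. The difference was 0.18 ± 0.06 (SE), or 1.13-fold (limma adjusted p = 0.605). Stat2 and Irf9, which encode factors of the type I response, had 0.11 (interval -0.02 to 0.25) and 0.15 (-0.01 to 0.30). Irf7, which amplifies the type I response, had 0.03 (-0.10 to 0.17), and Irf1, an early target of interferon gamma, had 0.09 (-0.08 to 0.25). Irf8, a factor of myeloid cells, had 0.09 (-0.02 to 0.19), and Irf2, a repressor, 0.01.

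The guanylate-binding proteins and immunity-related GTPases act on the vacuoles of intracellular pathogens, and their genes had a median difference of 0.22. Higher means in females were found in 8 of 8, against 49.6% of all genes. In that direction 5 of 8 had an unadjusted p under 0.05, against 3.63%. With the mean of T and NK lymphocyte markers as a covariate 0 of 8 had such a p and the median was 0.08, and with fibroblast markers as a covariate it was 1 of 8 and 0.11. The group's mean was -0.17, -0.06, 0.06 and -0.12 in males and 0.27, 0.03, 0.08 and 0.13 in females. Male 3 lay above female 2, so the sexes overlapped, and male 1 and female 1 formed the ends. Without female 1 the median was 0.18, and 2 of 8 kept an unadjusted p under 0.05. Without male 1 it was 0.23 with 2 of 8.

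**Figure D4:**
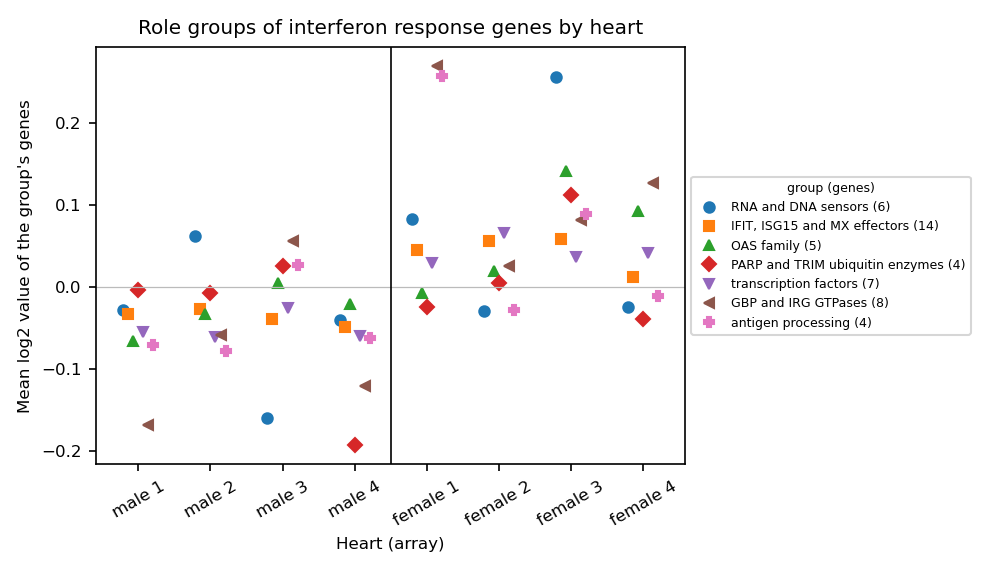
Mean log2 value (y axis) of each of the 7 role groups in each heart (x axis), with the number of measured genes of a group in the legend. The GTPase and antigen processing groups stand highest in female 1, at 0.27 and 0.26, while the high points of the sensor and OAS groups in female 3, at 0.26 and 0.14, include the single genes Ifi204 at 1.08 and Oas2 at 0.44.

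Promoters of 3 of these GTPase genes are shown for the motifs they hold. Capitals mark the response element core and, in Igtp and Irgm2, also the gamma-activated core. The stretches cover the 160 bases before the start at chr3:142559884-142560043, chr11:58199396-58199555 and chr11:58214817-58214976, all on the plus strand (RefSeq, GRCm38.p6).

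Gbp3: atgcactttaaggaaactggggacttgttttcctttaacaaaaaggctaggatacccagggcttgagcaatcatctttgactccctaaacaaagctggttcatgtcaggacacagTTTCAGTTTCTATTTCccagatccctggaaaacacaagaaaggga

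Igtp: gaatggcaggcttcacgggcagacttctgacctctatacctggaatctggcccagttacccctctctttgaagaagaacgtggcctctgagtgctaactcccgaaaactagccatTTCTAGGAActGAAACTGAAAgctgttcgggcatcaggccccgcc

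Irgm2: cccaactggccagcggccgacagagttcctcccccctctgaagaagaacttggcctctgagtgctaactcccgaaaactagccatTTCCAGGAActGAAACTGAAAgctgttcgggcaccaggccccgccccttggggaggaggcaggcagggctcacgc

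The Igtp and Irgm2 stretches share an ungapped block of 79 bases with 76 identical (96.2%), which holds both motifs. In Igtp the motifs begin 45 and 34 bases before the start, and in Irgm2 75 and 64 bases before it. Igtp and Irgm2 are neighbouring genes of the same family. Irgm2 values were -0.59, -0.10, 0.13 and -0.32 in males and 0.44, -0.12, 0.10 and 0.14 in females, and Igtp values were -0.31, -0.08, 0.05 and -0.05 in males and 0.53, 0.18, 0.17 and -0.06 in females. Both were lowest in male 1 and highest in female 1, and both overlapped between the sexes. Their differences were 0.36 ± 0.16 and 0.30 ± 0.12 (SE), or 1.29-fold and 1.23-fold (limma adjusted p = 0.716 and 0.67). For Irgm2 the difference was 0.24 without male 1, and the 22 alternatives gave values between 0.07 and 0.57.

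Gbp3 had 2 overlapping matches of the response element core, 45 and 39 bases before the start used here. Gbp3 also had a second window, of a later start, with 0 matches of either interferon motif. Its values were -0.0022, -0.11, -0.07 and -0.12 in males and 0.28, 0.05, 0.0022 and 0.25 in females. The sexes were separated only narrowly, at male 1 and female 3, and female 1 and female 4 stood high. The difference was 0.22 ± 0.06 (SE), or 1.16-fold (limma adjusted p = 0.558). Its neighbour Gbp7 was likewise highest in female 4 and female 1, at 0.43 and 0.25, with a difference of 0.23 ± 0.08 (SE). Gbp4 was at 0.48 in female 1 and at -0.08 in female 2, with a difference of 0.30 ± 0.11 (SE). Gbp5 had 0.16 (interval -0.03 to 0.35), and Gbp6 and Irgm1 had 0.0011 and 0.03. Guanylate-binding protein genes are close copies, so signal may be shared among their probe sets.

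Antigen processing was covered by the immunoproteasome subunit genes Psmb8 and Psmb9 and the peptide transporter genes Tap1 and Tap2, which lie together in the major histocompatibility complex. Higher means in females were found in 3 of 4, against 49.6% of all genes. In that direction 2 of 4 had an unadjusted p under 0.05, against 3.63%. The median difference was 0.15, and 0.06 without female 1. Tap2 values were -0.15, -0.08, -0.04 and -0.11 in males and 0.10, 0.13, 0.21 and 0.04 in females. The sexes were clearly apart, with female 4 the nearest to the males. The difference was 0.22 ± 0.04 (SE), or 1.16-fold (interval 0.12 to 0.31, limma adjusted p = 0.287), 48th by p among all genes. Over the alternatives it stayed between 0.19 and 0.24.

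Psmb9 and Tap1 start back to back, and the 225 bases between their starts, at chr17:34187331-34187555 on the plus strand (RefSeq, GRCm38.p6), are shown because both genes share them. Capitals mark a GC box, searched as GGGCGG on both strands, which 38.2% of all genes with a window hold. Neither of the 2 interferon motifs occurs in these letters.

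Psmb9 to Tap1: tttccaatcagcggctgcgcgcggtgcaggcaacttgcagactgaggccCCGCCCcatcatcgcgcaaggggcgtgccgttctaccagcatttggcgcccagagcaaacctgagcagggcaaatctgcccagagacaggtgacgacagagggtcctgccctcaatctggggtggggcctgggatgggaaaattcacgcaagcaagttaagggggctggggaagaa

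Psmb9 values were -0.07, -0.18, -0.01 and -0.10 in males and 0.33, 0.01, 0.12 and 0.09 in females. Tap1 values were -0.06, -0.07, 0.03 and -0.01 in males and 0.37, -0.24, 0.03 and 0.01 in females. Both genes were highest in female 1 and had female 2 as the lowest female, yet only Psmb9 separated the sexes. Its difference was 0.23 ± 0.07 (SE), or 1.17-fold (limma adjusted p = 0.556), while Tap1 had 0.07 (interval -0.17 to 0.32). Psmb8 had a difference of -0.03 (-0.21 to 0.16), with female 1 at 0.23 and female 4 at -0.20 as its ends.

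Apart from the sex difference, the 48 genes did not move as one block from heart to heart. With each sex's mean removed, the median correlation over the 1128 pairs of genes was 0.05 across the 8 hearts, against 0.0017 over all pairs of the 22180 genes. This is a description without a test, since all values of a heart share an RNA sample and an array. The share of pairs above 0.7 was 5.05% among the 48 genes and 4.13% among all genes. Pairs within antigen processing had a median of 0.51 over 6 pairs and those within the GTPases 0.27 over 28, while the IFIT, ISG15 and MX group had -0.02 over 91.

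The layers of the pathway outside the list were described with lists of 146 further genes, of which 123 were measured and 0 passed the adjustment over all genes. These lists too were chosen with earlier results of these data known, so their counts are no independent support. Over all genes, 49.6% had higher means in females. An unadjusted p under 0.05 was found in 3.63% towards females and in 3.32% towards males. Of 51 other interferon-induced genes, 38 had higher means in females, and 10 had an unadjusted p under 0.05 in that direction and 0 in the other. Parp12, an interferon-induced ADP-ribosyltransferase gene, had a difference of 0.17 ± 0.05 (SE), and Slfn8, of the Schlafen family, one of 0.20 ± 0.06 (SE). Their limma adjusted p were 0.499 and 0.553. Of 18 genes of class I and II antigen presentation, 15 had higher means in females and 2 had an unadjusted p under 0.05, namely H2-T23 at 0.12 ± 0.04 (SE) and B2m, the light chain of class I molecules, at 0.17 ± 0.07 (SE).

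Ligands, receptors and adaptors stand upstream of the induced genes. Interferon ligand genes had higher means in females in 9 of 18, against 49.6% of all genes. Of these 18, 0 had an unadjusted p under 0.05 in either direction. The 2 ligand genes with the smallest p were Ifna15 at 0.33 ± 0.16 (SE) and Ifna11 at 0.05 ± 0.03 (SE). Receptor and kinase genes had higher means in females in 3 of 10 and in males in 7, again with 0 in either direction, and their differences ran from -0.07 to 0.05. Ifngr2, a chain of the interferon gamma receptor, had -0.07 ± 0.05 (SE), and Ifnlr1, a chain of the lambda receptor, -0.06 ± 0.06 (SE).

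Over all genes the shares were 49.6% with higher means in females, and 3.63% and 3.32% at an unadjusted p under 0.05 towards females and males. Adaptors and Toll-like receptors had higher means in females in 7 of 16, with an unadjusted p under 0.05 for 2 in the direction of females and 1 in that of males. The latter was Mavs, the mitochondrial adaptor through which MDA5 and RIG-I signal, with a difference of -0.13 ± 0.04 (SE, limma adjusted p = 0.605). Its direction was opposite to that of Ifih1. Trim56, a ubiquitin ligase gene, had 0.12 ± 0.05 (SE), and Tlr3, a receptor of double-stranded RNA, 0.11 ± 0.05 (SE). Negative regulators had higher means in females in 5 of 10, with an unadjusted p under 0.05 for 1 towards females and 0 towards males. The 1 was the nucleotide hydrolase gene Samhd1 at 0.15 ± 0.06 (SE, limma adjusted p = 0.666). In Samhd1 all females lay above all males, as in 1.89% of all genes. Nlrx1 had -0.09 ± 0.05 (SE).

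**Figure D5:**
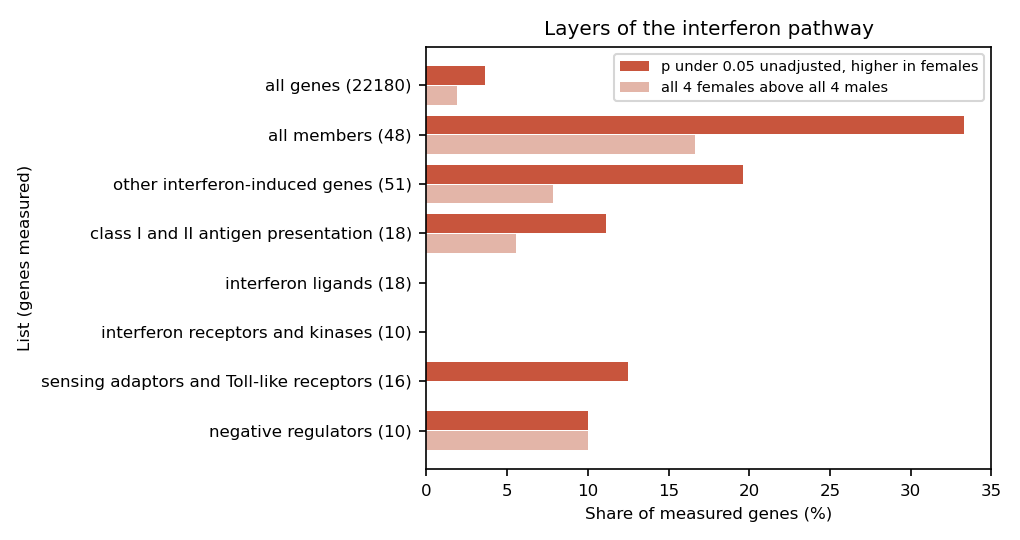
Share of measured genes (x axis, %) with an unadjusted p under 0.05 and a higher mean in females (dark bars) and with all 4 females above all 4 males (light bars), for all genes, the 48 members and 6 further lists of the pathway (y axis, with the number of genes). The members stand at 33.3% and 16.7%, other interferon-induced genes at 19.6% and 7.84%, and ligands and receptors at 0.

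These are bulk samples, in which more cells of a type and more RNA per cell cannot be told apart. Among immune cell lists, those of T and NK lymphocytes and of B and plasma cells had the largest shares of higher female means. Over all genes, 49.6% had higher means in females. An unadjusted p under 0.05 was found in 3.63% of all genes towards females and in 3.32% towards males. These shares stand beside all cell type counts here and below. T and NK lymphocyte markers had higher means in females in 10 of 12. An unadjusted p under 0.05 was found in 2 of 12, Cd3g at a difference of 0.22 and Gzma at 0.11. The related genes Cd3e and Cd3d had -0.08 and 0.03, so Cd3g did not stand for its family. The list means were -0.05, -0.04, 0.03 and -0.05 in males and 0.02, 0.02, 0.02 and 0.07 in females. Male 3 stood among the females here, and it was also the male with the highest mean of the 48 interferon genes. Among the females the order differed. Female 4 had the highest T and NK mean, at 0.07, with 0.03 over the 48 genes. Female 1 and female 3 had 0.02 each in the T and NK list, with 0.09 and 0.10 over the 48 genes. Macrophage and monocyte markers had higher means in females in 10 of 14, with 0 of 14 at an unadjusted p under 0.05. Their list means ran from -0.03 to -0.000018 in males and from -0.04 to 0.04 in females, where female 1 was lowest. B and plasma cell markers had 6 of 7, neutrophil and mast cell markers 6 of 10, and dendritic cell markers, which include Bst2, 6 of 9. Their median differences were 0.06, 0.02 and 0.0062. In the same order, 0 of 7, 2 of 10 and 1 of 9 had an unadjusted p under 0.05 and a higher mean in females. The 1 dendritic cell marker was Bst2. Centred values do not show which of these markers are at background.

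With the macrophage list as a covariate, 13 of the 48 genes had an unadjusted p under 0.05 and a higher mean in females, against a background of 3.84%. With the T and NK list as a covariate there were 5 of 48, where the background was 3.12%, and the median difference stayed at 0.09. Ifih1 was at 0.19 and Tap2 at 0.21 in the same fit. The covariate is itself partly a sex difference, and 8 hearts leave few degrees of freedom.

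Other tissues in the samples also varied. Adipocyte markers had higher means in females in 8 of 9, with 4 of 9 (44.4%) at an unadjusted p under 0.05 and a median difference of 0.22, beside 33.3% and 0.09 for the interferon response genes. Their list means ran from -0.28 to 0.16 in males and from -0.12 to 0.52 in females. Of 10 fibroblast markers, 3 collagen genes had an unadjusted p under 0.05 with a higher mean in males and 1 gene with a higher mean in females. The fibroblast list had a mean of 0.25 in male 1 and -0.16 in female 1, the hearts at the ends of the GTPase genes, and between -0.10 and 0.11 in the others. With the fibroblast list as a covariate 8 of the 48 genes had an unadjusted p under 0.05 and a higher mean in females, against a background of 3.19%, and with the adipocyte list 12, against 3.81%. Skeletal muscle markers ran from -0.20 to 0.71 and atrial markers from -1.16 to 0.53 over the 8 hearts, with atrial markers lowest in female 1. Endothelial markers were also lowest in female 1, at -0.16, with the other hearts between -0.01 and 0.05, and 3 of 11 (Cdh5, Kdr and Egfl7) had an unadjusted p under 0.05 with a higher mean in males. Smooth muscle and pericyte markers had higher means in males in 8 of 10, and Myh11, a smooth muscle myosin gene, had all males above all females. Cardiomyocyte markers had higher means in females in 4 of 10.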

How the data were processed

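RNA of 8 hearts was measured on 8 short-oligonucleotide arrays. The deposited table gives log2 values of 34351 probe sets. The log base was taken as 2. Which programs normalized the scans is not stated in the sources read here. Each probe set of the deposited log2 table is centred at a median of 0 (to within 1e-06), which removes brightness, and no filter on dim probe sets could be applied. Array medians lay between -0.002105 and 0.002304. The number of arrays, not a depth, limits the precision.

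GEO's platform annotation supplied gene names, and 23521 probe sets had 1 symbol, 1814 several and 9016 none. Of the named ones 23328 matched RefSeq (GRCm38.p6) by Entrez ID. Averaging gave 22180 genes. The sexes were compared by lmFit and eBayes of limma 3.58.1 (R 4.3.3), sex being the only term, adjusted by Benjamini-Hochberg over all genes at a threshold of 0.05. No set test was made.

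The labels call the samples biological replicates, and no 2 arrays were identical. The members and lists were chosen with earlier results of these data known. Values of every array are given for the 8 members with the smallest p, the smallest p of each role group, the 2 most male-directed and the 2 widest in range. Of the pathway lists, the 2 genes with the smallest p are named. Igtp, Isg15 and Tap1 and other single genes were chosen after their values were seen.

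On data simulated for the comparison of females with males over the 22180 genes, a log2 change of 0.25 was recovered in 43.9% of the altered genes, one of 0.5 in 88.7% and one of 1 in 99.4%, and 5.75% of the calls were false. The 48 interferon response genes had a median SE of 0.067, against 0.050 over all genes. The simulated shares are therefore not the power for these 48 genes.

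Alternatives were quantile normalization, median centring, another probe set rule, probe sets tested singly, the replicate number as a block, weights for arrays, a trended and robust eBayes, autosomal genes only, each array left out, and macrophage or lymphocyte markers as covariates. Covariates of adipocyte, skeletal muscle, atrial and fibroblast markers were added after seeing the data.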

Additional observations from a re-analysis of the deposited data

Results flagged for a closer look

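In groups of 4 hearts, 1 heart stood apart from the other 3 by Dixon's criterion in 7 of the 96 combinations of gene and sex looked at. Chance flags about 1 in 20 such groups. In female 1, Ifit1 was at 0.26 with the next heart at 0.06, and Irf9 was at 0.21 with the next at 0.01. In female 3, Ifit2 was at -0.0722, below the next at 0.13. In male 4, Oas2 was at -0.10 and Gbp7 at -0.0842, with the next hearts at -0.0092 and -0.0094. In male 1, Xaf1 was at -0.15 with the next at -0.0082, and in male 3 Gbp6 was at 0.12 with the next at 0.00057.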

How the results depend on the processing

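Over 22 alternatives the number of interferon response genes past the adjusted threshold stayed at 0, the number with higher means in females ran from 35 to 44 of 48, and the number with all females above all males from 8 to 12. The median difference ran from 0.09 to 0.12, the highest with the skeletal muscle covariate (0.12). The count of 16 genes with an unadjusted p under 0.05 and higher in females became 5 with the T and NK covariate and 8 with the fibroblast covariate, and ran from 9 (without female 1) to 15 when single arrays were left out. The count of 0 in the direction of males was 1 with array weights, with the adipocyte covariate and with the atrial covariate, and ran from 0 to 1 when single arrays were left out. The difference of Ifi204 ran from -0.0538 (without female 3) to 0.42 when single arrays were left out. With the replicate number as a block the count of 16 was 15, of which 12 were shared. Deviations of same-numbered arrays had correlations of 0.14, 0.10, 0.0062 and 0.09 for numbers 1 to 4, all positive. Between different numbers the correlations ran from -0.13 to 0.10. Female 1, female 2 and female 4 correlated best with the male of their own number, and female 3 with male 1, at 0.06. For female 2 this was nearly a tie, at 0.097 with male 2 and 0.095 with male 4. The labels state no pairing, so the numbers entered as a block in an alternative only. Whether hearts of the same number shared a batch was not tested.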

Other observations

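Probe sets with several symbols stood outside the comparison. The probe set shared by Gbp2 and Gbp2b, guanylate-binding protein genes, had a female minus male difference of 0.31 with an unadjusted limma p of 0.0112. Those shared by Oas1a and Oas1g, by Irf5 and Tnpo3, by Dtx3l and Parp9, and by Ifi47 and Olfr56 had differences of 0.02, -0.05, -0.06 and 0.05.

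Among genes of the pathway lists singled out after their values were seen, the GTPase gene Iigp1 was lowest in male 1 at -0.52 and highest in female 1 at 0.52. H2-Ab1, a class II chain gene, was highest in female 1 and female 3, at 0.43 and 0.37. Ifi205, a relative of Ifi204, ran from -0.68 in female 2 to 0.31 in male 2, and was at 0.15 in female 3, where Ifi204 was at 1.08.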
